A study of Homo sapiens with 18 samples.

Results

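Glycolysis splits glucose into pyruvate, and the 33 genes described here encode its enzymes, the transporters that bring glucose in and carry lactate out, the PFKFB enzymes that set the pace of phosphofructokinase, and the proteins that carry pyruvate into mitochondria and oxidise it there. They were listed as gene symbols by pathway knowledge, and with earlier results of these data known. Comparisons of the members with all genes are therefore not independent of these data. Each member was measured in TPM (a length-scaled share of a library's transcripts), summed over its GENCODE 29 transcripts. All 33 symbols were found among the 57865 genes of the table. The material was RNA of HEK293T cells, an established line from human embryonic kidney, and RNA of their extracellular vesicles (EVs), small membrane-bound particles that cells release.

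In this pathway, hexokinase traps glucose in the cell, phosphofructokinase commits it to breakdown, and pyruvate kinase makes pyruvate. Lactate dehydrogenase turns pyruvate into lactate when it is not oxidised, and pyruvate dehydrogenase turns it into acetyl-CoA for the citric acid cycle. Proteins and mRNAs of glycolysis are abundant in growing cell lines and are often found in preparations of EVs.

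The study compared 6 groups of 3 libraries, namely EVs and cells of wild-type, ATG7-/- and ATG12-/- cells. The labels name clone F2 for ATG7-/- and clone D9 for ATG12-/-, so each knockout is a single clone. ATG7 and ATG12 belong to the machinery that attaches LC3 to membranes, and the question was whether RNA in EVs depends on it. Every group had been kept without serum for 24 h, and the labels call the 3 libraries of a group biological replicates without saying how the cultures were separated, so p-values measure the spread between these samples. Reads were single-end and 50 bases long, from a stranded total-RNA kit. For the deposited values, the strand setting, genome build and annotation were not given in the sources used here.

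The table keeps no sequencing depth, so the depth of each library is unknown. Within a group, the Pearson correlation of log2(TPM + 1) across genes, which are not independent replicates, was 0.762 to 0.821 in EVs and 0.838 to 0.880 in cells. Of 10 genes that mark the HEK293 line, 8 had a mean of at least 1 TPM in cells and 9 in EVs. Of 12 markers of blood, platelets, immune cells, liver, fibroblasts, endothelium, keratinocytes and glia, 4 reached that level in cells and 2 in EVs. Their summed level was 13 to 38.2 TPM in a cell library and 1.27 to 50.3 TPM in an EV library, and HBB, PPBP, PF4, CD3E, ALB and KRT5 were listed at 0 in all 18. The part of those other cell types in the results was not tested.

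The values of several members rest on short or shared stretches of sequence, which are shown first. LDHA-225, a transcript of 141 bases with 2 exons (GRCh38 chr11:18396843-18400935, + strand), held 97.8% of the LDHA signal, and its second exon is in capitals. The GAPDH sequence is a coding stretch of GAPDH-211 (chr12:6537794-6537985, + strand) that lies wholly opposite an exon of the noncoding gene AC006064.4. The PFKFB2 sequence is a stretch of PFKFB2-209 (chr1:207049157-207049299, + strand) that lies opposite coding sequence of YOD1. These 3 come from the GENCODE 29 transcripts. The fourth is the 250 bases upstream of a RefSeq start of PGK1 (GRCh38.p14 chrX:78103998-78104247, + strand), with capitals on each copy of ACGTG or GCGTG, the core of the element bound by hypoxia-inducible factors, on either strand (CACGT or CACGC on the strand shown).
LDHA-225: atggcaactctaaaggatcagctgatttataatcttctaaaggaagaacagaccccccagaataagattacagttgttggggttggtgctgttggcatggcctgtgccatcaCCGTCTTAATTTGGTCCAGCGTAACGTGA
GAPDH: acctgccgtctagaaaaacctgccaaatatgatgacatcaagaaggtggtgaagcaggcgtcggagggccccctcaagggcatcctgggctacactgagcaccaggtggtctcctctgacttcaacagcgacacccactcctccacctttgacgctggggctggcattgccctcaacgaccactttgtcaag
PFKFB2-209: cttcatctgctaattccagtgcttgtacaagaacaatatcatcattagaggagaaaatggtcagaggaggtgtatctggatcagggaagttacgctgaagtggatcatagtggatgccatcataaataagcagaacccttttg
PGK1: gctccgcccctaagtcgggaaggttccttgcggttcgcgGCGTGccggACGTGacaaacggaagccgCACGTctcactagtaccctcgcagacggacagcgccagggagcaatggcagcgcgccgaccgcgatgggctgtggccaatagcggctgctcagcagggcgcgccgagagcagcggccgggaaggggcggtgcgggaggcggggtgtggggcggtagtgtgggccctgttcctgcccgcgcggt

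The core motif was present in 40 of 60 RefSeq promoter windows of the members (66.7%), where a window runs from 250 bases before to 50 after a start, against 48.4% of all 35116 windows of that length. Of the 30 members with a window, 29 had a copy in any of their windows, and PGAM1 had none. Some members had several windows, and some of these overlap, which raises the count per gene. That count cannot be set beside the 48.4%, which is a share of windows, and no share per gene over all genes is given. SLC16A1, SLC2A3 and PFKFB2 had no window in the RefSeq table. A match describes letters and is not evidence that a factor binds.

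The members spanned a wide range of levels. LDHA, the lactate dehydrogenase subunit of muscle and of many cell lines, was the highest in every group, with a mean of 5554 ± 1831 TPM in EVs and 2726 ± 669 in cells (SD, n = 9 each). TPI1, GAPDH, PFKFB2, ALDOA and PKM followed over the 18 libraries. Mean levels were at least 100 TPM for 8 members in EVs and for 4 in cells. At the low end, SLC2A3, a glucose transporter of neurons, was between 0 and 2.14 TPM and was too low to test, and the regulator PFKFB4 passed the filter only through EVs. The other 31 had at least 1 TPM in at least 3 EV libraries and in at least 3 cell libraries, and 24 had at least 1 TPM in all 18.

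**Figure D1:**
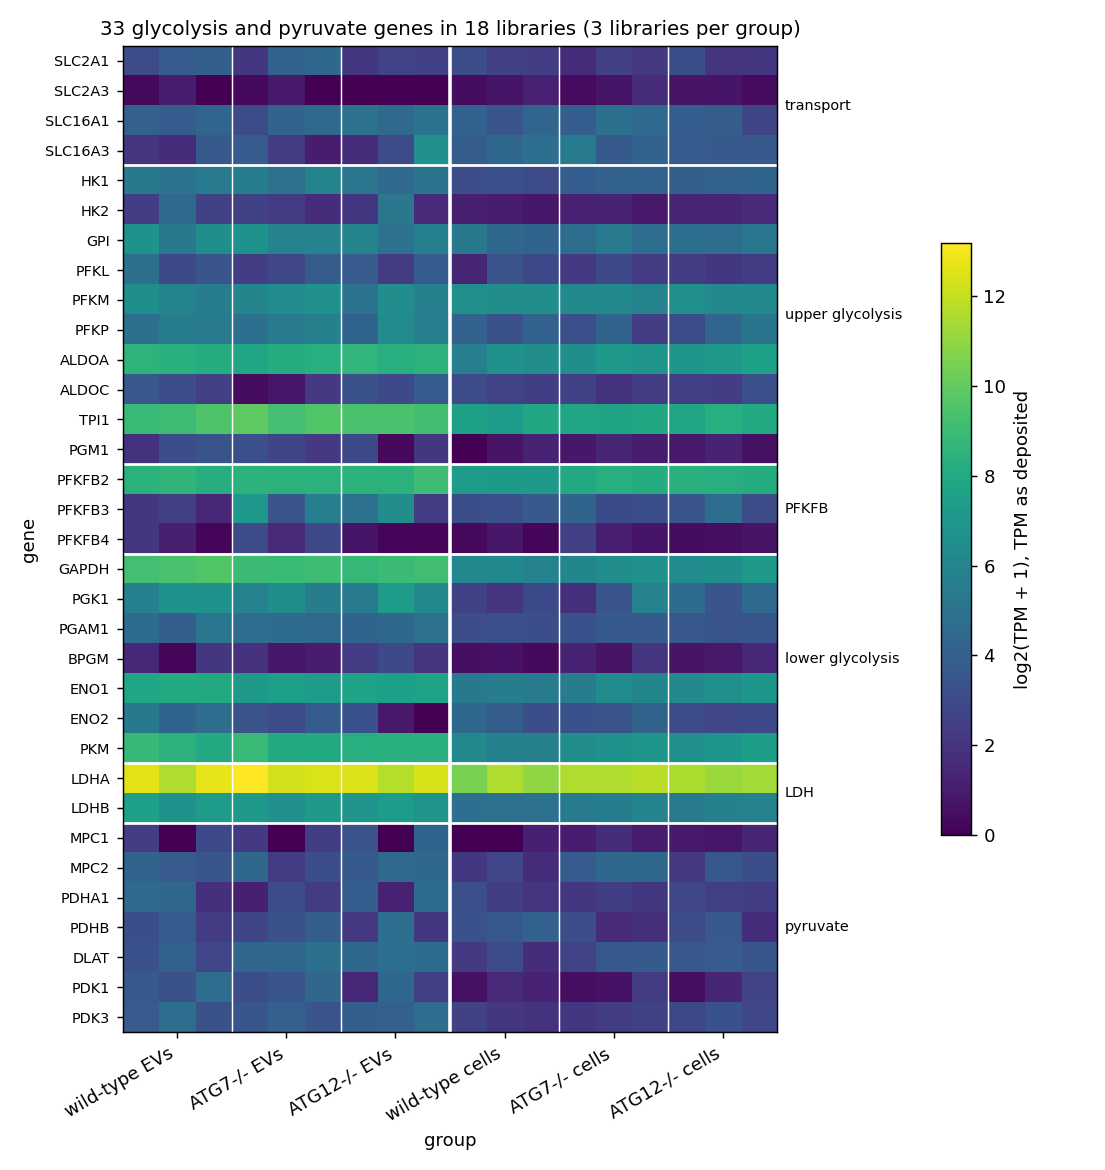
Heat map of log2(TPM + 1) for the 33 members (rows, grouped by role) in the 18 libraries (columns, 3 per group, white lines between groups). LDHA is the brightest row throughout, and GAPDH, TPI1, PKM, ALDOA and ENO1 are brighter in the 9 EV libraries than in the 9 cell libraries.

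Most of the summed signal was LDHA. The 33 members together held 8501 ± 1967 TPM in wild-type EVs, 9684 ± 2652 in ATG7-/- EVs and 7888 ± 1198 in ATG12-/- EVs (SD, n = 3 each). In cells the sums were 3098 ± 845 for wild type, 4513 ± 350 for ATG7-/- and 4042 ± 245 for ATG12-/-. LDHA made up between 49.4% and 78.8% of a library's sum. Without it, the other 32 held 3165 to 3322 TPM in wild-type EVs, 2750 to 3405 in ATG7-/- EVs and 2886 to 3257 in ATG12-/- EVs. The same sum was 852 to 900 TPM in wild-type cells, 1088 to 1275 in ATG7-/- cells and 1260 to 1498 in ATG12-/- cells. EV libraries therefore lay above all cell libraries on this sum, and both knockouts' cells lay above wild-type cells. The sum includes PFKFB2, whose signal is mostly that of a retained-intron transcript. PFKFB2 had 144 ± 7.4 TPM in wild-type cells, 281 ± 34.2 in ATG7-/- cells and 311 ± 22.3 in ATG12-/- cells.

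EVs were compared with cells over the 3 genotypes together. Of 32 members tested, 18 were higher in EVs and 2 were lower at an adjusted p below 0.05, by limma with Benjamini-Hochberg adjustment over the 24647 genes tested. Over all those genes, 7.66% were higher and 36.5% were lower. The median log2 difference was 0.83 for the members and -0.62 for all genes. Differences are on log2(TPM + 1) after scaling, a scale that understates the change of low genes, and since TPM are shares, a member can be higher because other RNAs are fewer. In bulk RNA, fewer cells or vesicles of a kind and less RNA in each cannot be told apart. In the deposited TPM, before scaling, all 9 EV libraries lay above all 9 cell libraries for HK1, HK2, ALDOA, TPI1, GAPDH, PGAM1, ENO1, PKM and LDHB. These are 9 members against 1.95% of all genes. After scaling, which lowers EV values and raises most cell values, the ranges of HK2 and PGAM1 overlap.

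**Figure D2:**
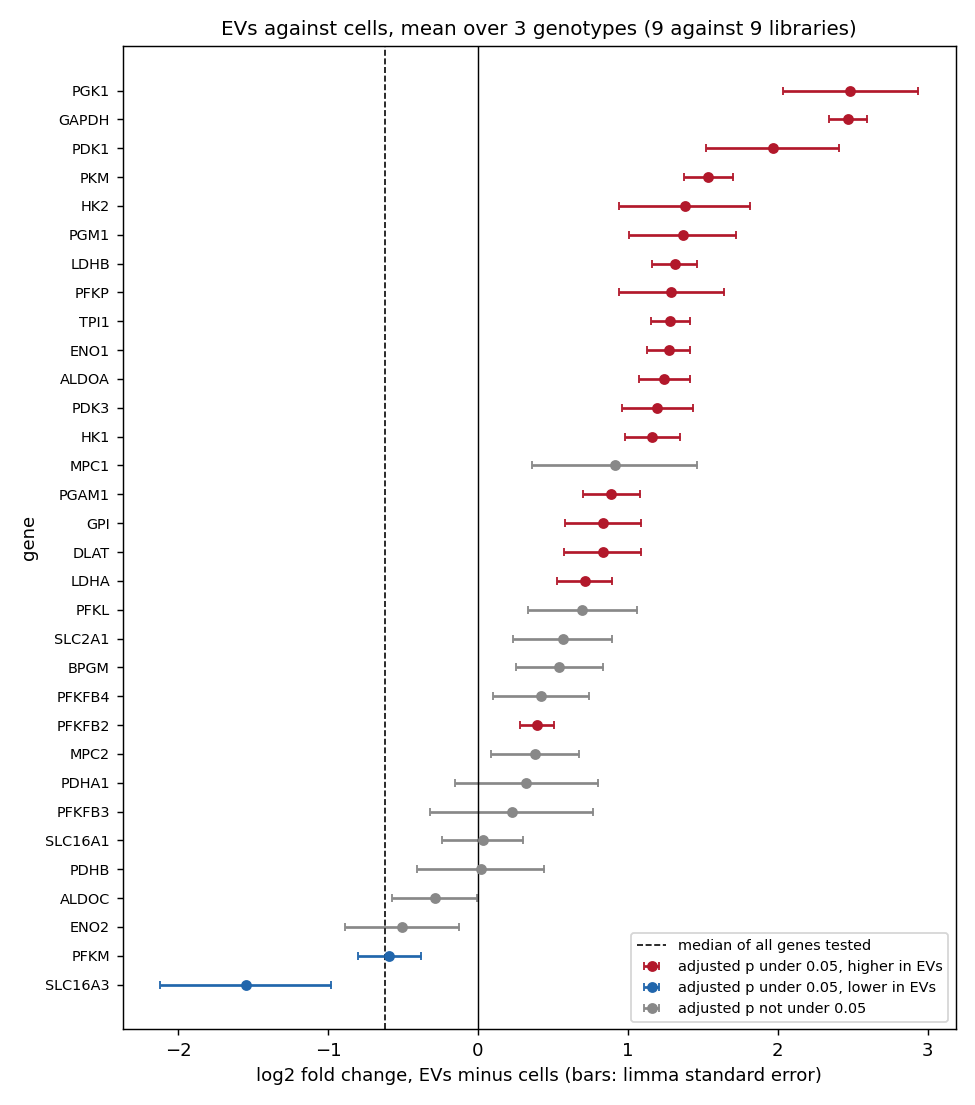
Log2 difference, EVs minus cells, averaged over the 3 genotypes (points) with limma's standard error (bars) for the 32 members tested. PGK1 at 2.48 (0.31 with protein-coding transcripts alone, not drawn) and GAPDH at 2.47 lie farthest to the right, SLC16A3 at -1.55 farthest to the left, and the dashed line is the median of all genes tested (-0.62).

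Among the transporters, no member was higher in EVs. SLC16A3 (MCT4), which exports lactate from glycolytic cells, was called lower, with 1.00 TPM at the lowest, 4.14 at the median and 99.5 at the highest EV library against 11.8, 13.7 and 43.4 in cells. The EV and cell ranges overlapped, the highest value being ATG12-/- EV replicate 3. The log2 difference was -1.55 ± 0.57 (limma standard error), with an adjusted p of 0.0386 by limma. That call was lost in 16 of 29 refits, over which the difference ranged from -1.99 to -1. SLC2A1 (GLUT1), the main glucose transporter of many cell lines, had 3.32 to 21.1 TPM in EVs and 2.18 to 7.87 in cells. SLC16A1 (MCT1), a lactate and pyruvate carrier, had 6.93 to 32.1 TPM in EVs and 5.65 to 27.9 in cells. Neither passed the test.

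In upper glycolysis, 7 of 10 members were higher in EVs and 1 was lower. HK1, the hexokinase bound to mitochondria, had 22.1 TPM at the lowest, 35.2 at the median and 60.1 at the highest EV library, against 7.07, 14.9 and 17.8 in cells. The ranges were apart, and the log2 difference was 1.16 ± 0.18 (limma adjusted p = 0.000171). HK2, the inducible hexokinase of many tumours, had 2.05, 4.25 and 35.9 TPM against 0.776, 1.30 and 1.95, a difference of 1.38 ± 0.44 (limma adjusted p = 0.0191). Its 2 highest EV values, 22.1 in wild-type replicate 2 and 35.9 in ATG12-/- replicate 2, came mainly from the retained-intron transcript HK2-203, which was listed at 0 in every other library.

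GPI, which converts glucose 6-phosphate into fructose 6-phosphate, had 29.5, 56.5 and 108 TPM in EVs at the lowest, median and highest library, and 18.2, 26.1 and 43.1 in cells. The ranges overlapped, and the difference was 0.84 ± 0.25 (limma adjusted p = 0.0152). PGM1, which feeds glucose 1-phosphate from glycogen into the pathway, had 0.263, 5.78 and 9.59 TPM against 0, 0.843 and 1.69, a difference of 1.36 ± 0.35 (limma adjusted p = 0.00635). Only ATG12-/- EV replicate 2 fell among the cell values.

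The phosphofructokinase subunits went different ways. PFKP, the platelet-type subunit, had 18, 41.0 and 80.4 TPM in EVs against 4.24, 16.6 and 33.8 in cells, a difference of 1.29 ± 0.35 (limma adjusted p = 0.00822). PFKM, the muscle-type subunit, had 31.3, 63.3 and 101 TPM in EVs against 58.2, 77.9 and 96.5 in cells, a difference of -0.59 ± 0.21 (limma adjusted p = 0.0326). The ranges of both overlapped. The PFKM call was lost in 10 of 29 refits, over which the difference ranged from -0.70 to -0.16. PFKL, the liver-type subunit, had 4.11 to 27.9 TPM in EVs and 1.56 to 9.35 in cells and was not called.

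ALDOA and TPI1 carry the split of the 6-carbon sugar into triose phosphates. ALDOA had 222 TPM at the lowest, 313 at the median and 402 at the highest EV library, against 48.4, 112 and 187 in cells, a difference of 1.24 ± 0.17 (limma adjusted p = 4.99e-05). TPI1 had 471, 662 and 969 TPM against 155, 226 and 306, a difference of 1.28 ± 0.13 (limma adjusted p = 3.72e-06). All EV libraries were above all cell libraries for both. ALDOC, the brain aldolase, had 0.346 to 13.3 TPM in EVs and 2.75 to 8.41 in cells and was not called.

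In lower glycolysis, 5 of 7 members were higher in EVs and none was lower. GAPDH, which makes the first NADH of the pathway, had 604, 685 and 789 TPM in wild-type EVs, 515, 492 and 536 in ATG7-/- EVs, and 432, 503 and 556 in ATG12-/- EVs. Cells had 69.2, 70.0 and 56.1 TPM in wild type, 66.2, 87.5 and 99.4 in ATG7-/-, and 84.0, 93.1 and 136 in ATG12-/-. The lowest EV library (432 TPM) was far above the highest cell library (136 TPM), and the log2 difference was 2.47 ± 0.13 (limma adjusted p = 2.39e-09). PGK1, the first ATP-making enzyme, had 43.1 TPM at the lowest, 71.7 at the median and 158 at the highest EV library, against 2.57, 10.2 and 56.9 in cells. Its difference was 2.48 ± 0.45 (limma adjusted p = 0.000568), and only ATG7-/- cell replicate 3 reached the EV range. With protein-coding transcripts alone the PGK1 difference was 0.31 and was not called (limma adjusted p = 0.406).

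PGAM1, a phosphoglycerate mutase, had 14.9, 23.4 and 35.2 TPM in EVs against 7.69, 9.66 and 12.4 in cells, a difference of 0.89 ± 0.19 (limma adjusted p = 0.00191). ENO1, the common enolase, had 134, 198 and 266 TPM against 39.8, 65.6 and 122, a difference of 1.27 ± 0.14 (limma adjusted p = 9.9e-06). PKM, pyruvate kinase, had 254, 324 and 477 TPM against 52.4, 95.9 and 160, a difference of 1.54 ± 0.16 (limma adjusted p = 6.05e-06). For these 3 the EV and cell ranges were apart in the deposited TPM, though those of PGAM1 overlap after scaling. BPGM, which makes 2,3-bisphosphoglycerate in red cells, had 0.154 to 6.60 TPM in EVs and 0.259 to 2.98 in cells. ENO2, the neuronal enolase, had 0 to 39.4 TPM in EVs and 5.94 to 20.6 in cells, and neither was called.

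Both lactate dehydrogenase genes were higher in EVs. LDHA had 6167, 3087 and 6579 TPM in wild-type EVs, 9290, 4945 and 5574 in ATG7-/- EVs, and 5637, 3333 and 5377 in ATG12-/- EVs. Cells had 1483, 3165 and 2023 TPM in wild type, 3111, 3174 and 3619 in ATG7-/-, and 2973, 2360 and 2630 in ATG12-/-. The ranges overlapped, and the difference was 0.71 ± 0.19 (limma adjusted p = 0.0066). LDHB, the heart-type subunit, had 99.97 TPM at the lowest, 136 at the median and 171 at the highest EV library, against 27.4, 44.4 and 59.1 in cells, with no overlap. Its difference was 1.31 ± 0.15 (limma adjusted p = 1.24e-05).

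Among the PFKFB regulators, which make and break fructose 2,6-bisphosphate, the strongest activator of phosphofructokinase, PFKFB2 was the called member. It had 294 TPM at the lowest, 358 at the median and 548 at the highest EV library, against 137, 284 and 331 in cells, and the ranges overlapped. Its difference was 0.39 ± 0.11 (limma adjusted p = 0.0113), below that of every other member called higher. With protein-coding transcripts alone, which leave out its leading transcript PFKFB2-209, the direction turned and the difference was -2.49. PFKFB3 had 1.73 to 130 TPM in EVs and 6.81 to 26.3 in cells, and PFKFB4 had 0.126 to 7.09 and 0.117 to 4.63.

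Of the 7 genes of pyruvate entry and oxidation, 3 were higher in EVs and none was lower. PDK1, a kinase that switches pyruvate dehydrogenase off, had 1.86, 10.1 and 25.1 TPM at the lowest, median and highest EV library and 0.419, 1.43 and 5.56 in cells, a difference of 1.97 ± 0.45 (limma adjusted p = 0.00268), which was 0.89 and not called with protein-coding transcripts alone. PDK3, a kinase of the same family, had 8.67, 14.7 and 26.3 TPM against 2.80, 4.91 and 8.94, a difference of 1.2 ± 0.24 (limma adjusted p = 0.0011). DLAT, the acetyl-transferring core of the complex, had 6.07, 19.5 and 28.4 TPM against 2.31, 10.7 and 12.9, a difference of 0.83 ± 0.25 (limma adjusted p = 0.0162). All 3 had some overlap between EV and cell libraries.

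The other 4 were not called. PDHA1 and PDHB, which form the first enzyme of the complex, had 1.26 to 24.2 and 3.24 to 26.4 TPM in EVs, and 2.95 to 8.41 and 1.95 to 15.8 in cells. MPC2, a subunit of the mitochondrial pyruvate carrier, had 3.91 to 22.5 TPM in EVs and 2.32 to 20.0 in cells. Its partner MPC1 was listed at 0 in replicate 2 of each EV group and reached 18 TPM in EVs and 2.33 in cells.

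Within genotypes the same contrast had 3 libraries against 3. In wild type, 13 of 32 members were higher in EVs and 0 were lower, where 4.02% of all genes were higher and 20.6% were lower. In ATG7-/-, 7 were higher, against 2.71% of all genes, and in ATG12-/- 6 were higher, against 2.27%. In ATG7-/- and ATG12-/- 0 members were called lower by limma, where 8.68% and 8.97% of all genes were. At an unadjusted p under 0.05, 17 members were higher and 2 lower in wild type, 17 and 3 in ATG7-/-, and 12 and 1 in ATG12-/-, beside 38.6%, 28.1% and 27.7% of all genes in either direction. ALDOA, ENO1, GAPDH, LDHB, PKM and TPI1 were called higher in each genotype. In wild type these calls were kept in every refit. Of 29 refits, the ENO1 call was lost in 2 in ATG7-/- and 14 in ATG12-/-, that of ALDOA in 6 and 4. The LDHB call was lost in 4 and 1 and the PKM call in 0 and 1, and GAPDH and TPI1 kept theirs in all. GAPDH differed by 2.89 ± 0.22 in wild type, 2.39 ± 0.22 in ATG7-/- and 2.12 ± 0.22 in ATG12-/-, and ENO1 by 1.96 ± 0.25, 1.04 ± 0.25 and 0.82 ± 0.25. PFKM and SLC16A3 were below 0 in all 3 genotypes and 20 members were above 0 in all 3. Without ATG7-/- cell replicate 1 the calls in ATG7-/- were GAPDH, PKM and TPI1, and without ATG12-/- cell replicate 1 those in ATG12-/- were GAPDH and TPI1.

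Whether the EV-to-cell difference itself changed with genotype was tested as an interaction, and 0 of 32 members were called for either knockout by limma, where 0.276% of all genes were called for ATG7-/- and 0.272% for ATG12-/-. At an unadjusted p under 0.05 there were 4 members for ATG7-/- and 5 for ATG12-/-, beside 8.88% and 10.1% of all genes. The median interaction value of the members was -0.41 for ATG7-/- and -0.16 for ATG12-/-, and that of all genes was 0.22 and 0.19. Below 0 were 22 of 32 members for ATG7-/- and 20 for ATG12-/-, where 58.9% and 57.0% of all genes were above 0. In lower glycolysis 7 of 7 members were below 0 for ATG7-/- and 6 of 7 for ATG12-/-. ENO1 had interaction values of -0.92 ± 0.35 for ATG7-/- and -1.13 ± 0.35 for ATG12-/- (limma adjusted p = 0.439 and 0.282), and GAPDH of -0.50 ± 0.31 and -0.77 ± 0.31 (limma adjusted p = 0.677 and 0.436). Both comparisons share the wild-type libraries. Scaling was set within each fit, and the interaction used all 18 libraries. These values therefore need not equal the knockout difference in EVs minus that in cells, which came from separate fits.

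In EVs, neither knockout had a called member. Of 32 members tested, 0 were called by limma in ATG7-/- EVs, where 0.141% of 17076 genes were called, and 0 in ATG12-/- EVs, where 0.105% were. At an unadjusted p under 0.05 there were 3 members in each, beside 7.38% of all genes in ATG7-/- EVs and 7.94% in ATG12-/- EVs. The median difference was -0.02 for the members in both knockouts, against -0.00198 and -0.08 for all genes. These comparisons, like those in cells, share their wild-type controls, so values are given side by side.

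Some EV groups were apart without a call. GAPDH and ENO1 were lower in all 6 knockout EV libraries than in the 3 wild-type ones. ENO1 had 212, 266 and 252 TPM in wild-type EVs, 134, 175 and 156 in ATG7-/- EVs and 198, 175 and 201 in ATG12-/- EVs. The log2 differences were -0.55 ± 0.25 and -0.27 ± 0.25 for ENO1 (limma adjusted p = 0.68 and 0.831) and -0.33 ± 0.19 and -0.40 ± 0.19 for GAPDH (limma adjusted p = 0.755 and 0.644). ENO2 had 39.4, 18 and 25.4 TPM in wild-type EVs, 9.53, 7.29 and 13.1 in ATG7-/- EVs and 8.91, 0.836 and 0 in ATG12-/- EVs. Its differences of -1.26 ± 0.86 and -3.30 ± 0.86 did not pass (limma adjusted p = 0.8 and 0.309). DLAT lay above wild type in both, with 9.01, 16.3 and 6.07 TPM in wild-type EVs, 19.5, 19.4 and 28.4 in ATG7-/- EVs and 20.6, 27.4 and 24.4 in ATG12-/- EVs (limma adjusted p = 0.658 and 0.595). Groups did not overlap for 2 members higher and 4 lower in each knockout, against 6.39% higher and 7.53% lower of all genes in ATG7-/- EVs, and 4.35% and 6.99% in ATG12-/- EVs.

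PFKFB3, which in many tissues favours glycolysis, had the largest positive differences in knockout EVs among the members, 3.46 ± 1.13 in ATG7-/- and 2.63 ± 1.13 in ATG12-/- (limma adjusted p = 0.515 and 0.619). It had 3.37, 4.58 and 1.73 TPM in wild-type EVs, 130, 10.3 and 49.6 in ATG7-/- EVs and 29.3, 89.3 and 4.09 in ATG12-/- EVs. The 3 highest values came mainly from PFKFB3-207, a transcript of 244 bases, which had 120 and 41.2 TPM in ATG7-/- EV replicates 1 and 3 and 66.9 in ATG12-/- EV replicate 2 and was listed at 0 in the other 6 EV libraries. All other PFKFB3 transcripts together had 3.37, 4.58 and 1.73 TPM in wild-type EVs and 9.66, 10.3 and 8.39 in ATG7-/- EVs, without overlap. In ATG12-/- EVs they had 29.3, 22.3 and 4.09 TPM, which overlapped wild type, and in cells 6.73 to 17.9.

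In cells, most members had higher means in the knockouts. Of 31 tested, 23 were above 0 in ATG7-/- cells and 24 in ATG12-/- cells, where 45.9% and 45.8% of all genes were. The median difference was 0.43 and 0.45 for the members and -0.07 in both for all genes. By limma 0 members were called in ATG7-/- cells (0.2% of 22471 genes were) and 1 in ATG12-/- cells, where 0.134% of genes were called. Unadjusted p-values under 0.05 numbered 10 in ATG7-/- cells, 9 of them higher, and 11 in ATG12-/- cells, 10 of them higher, beside 14.4% and 15.0% of all genes in either direction. All 3 libraries of ATG7-/- cells lay above wild-type cells for 7 members (8.15% of all genes) and below for 2 (11.8%). For ATG12-/- cells those numbers were 13 (10.7%) and 2 (13%).

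**Figure D3:**
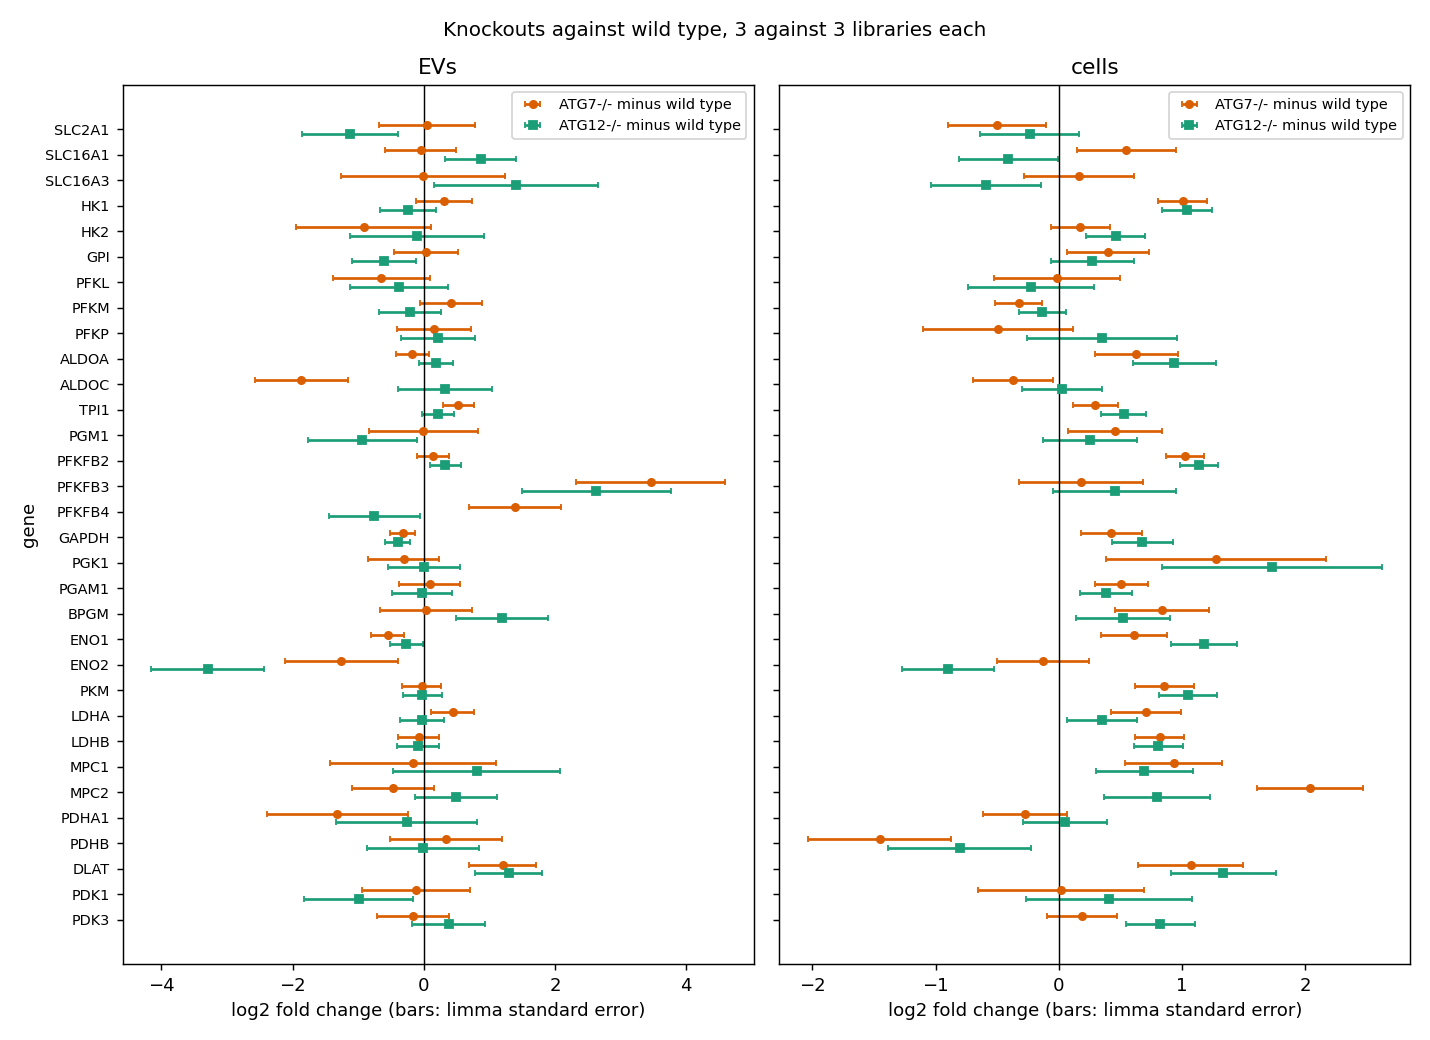
Log2 differences of ATG7-/- (circles) and ATG12-/- (squares) from wild type in EVs (left) and in cells (right), with limma's standard error as bars and a separate horizontal scale in each panel. In cells most points lie right of 0 (23 of 31 and 24 of 31), while in EVs 14 of 32 do in each knockout.

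The called member in ATG12-/- cells was PFKFB2. It had 151, 143 and 137 TPM in wild-type cells, 245, 313 and 284 in ATG7-/- cells and 331, 316 and 287 in ATG12-/- cells, with no overlap between either knockout and wild type. The difference was 1.14 ± 0.15 for ATG12-/- (limma adjusted p = 0.0481) and 1.03 ± 0.15 for ATG7-/- (limma adjusted p = 0.0546). The call in ATG12-/- cells was lost in 13 of 20 refits, with adjusted p-values up to 0.352, including those without any 1 of the wild-type or ATG12-/- cell libraries. The gene was called in ATG7-/- cells when transcripts under 200 bases, or mitochondrial and small noncoding RNA, were left out.

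HK1, PKM, LDHB, PGAM1 and BPGM were not called in the cells of either knockout, although their values lay above those of wild type. HK1 had 7.68, 8.31 and 7.07 TPM in wild-type cells, 14.2, 16.9 and 16.0 in ATG7-/- cells and 14.9, 16.9 and 17.8 in ATG12-/- cells, differences of 1.01 ± 0.20 and 1.04 ± 0.20 (limma adjusted p = 0.0934 and 0.103). PKM had 77.7, 53.6 and 52.4 TPM in wild type, 91.5, 104 and 121 in ATG7-/- and 95.9, 121 and 160 in ATG12-/- cells (limma adjusted p = 0.179 and 0.139). LDHB had 27.4, 30.6 and 29.3 TPM, then 44.4, 46.6 and 59.1, then 42.4, 54.6 and 55.7 in the same order (limma adjusted p = 0.137 and 0.157). PGAM1 and BPGM were at 7.69 to 8.16 and 0.259 to 0.570 TPM in wild-type cells, 9.06 to 12.4 and 0.623 to 2.98 in ATG7-/- cells, and 9.66 to 10.9 and 0.623 to 1.79 in ATG12-/- cells.

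Other members stood apart from wild type in the cells of a single knockout. MPC2 had 3.46, 6.03 and 2.32 TPM in wild-type cells and 13.5, 20.0 and 20.0 in ATG7-/- cells, a difference of 2.04 ± 0.43 (limma adjusted p = 0.11), and 3.76, 11.3 and 8.02 in ATG12-/- cells, where the ranges overlapped. ENO1 had 39.8, 47.2 and 43.5 TPM in wild-type cells, 46.7, 84.4 and 65.6 in ATG7-/- cells and 78.1, 97.2 and 122 in ATG12-/- cells, a difference of 1.18 ± 0.27 in the last (limma adjusted p = 0.139). GAPDH differed by 0.43 ± 0.25 and 0.68 ± 0.25 (limma adjusted p = 0.461 and 0.267). PDHB had 8.86, 11.3 and 15.8 TPM in wild-type cells and 7.55, 1.95 and 2.48 in ATG7-/- cells, which all lay below (limma adjusted p = 0.311). The transporters were mixed, with 2 of 3 tested members above 0 in ATG7-/- cells and 0 of 3 in ATG12-/- cells.

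The transcripts behind these gene sums were often short. The leading transcript, the one with the most TPM over all libraries, was under 600 bases for 13 of 33 members and was not of the protein-coding type for 9. LDHA-225, printed above, had 5411 ± 1823 TPM in EVs and 2687 ± 661 in cells (SD, n = 9 each), so the LDHA level is largely that of a 141-base model. All other LDHA transcripts together had 113 to 202 TPM in EVs and 13.9 to 84.7 in cells, with no overlap. Without transcripts under 200 bases, the LDHA difference between EVs and cells was 1.71 on the log2 scale, against 0.71 with them.

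Several other members had a similar make-up. TPI1-204, a retained-intron transcript of 427 bases, held 72.4% of TPI1, with 212 to 845 TPM in EVs and 121 to 247 in cells, and all other TPI1 transcripts had 124 to 294 and 27.2 to 61.0. PKM-218, of 550 bases, had 152 ± 90.9 TPM in EVs and 8.83 ± 14.2 in cells, where it was listed at 0 in 6 of 9 libraries. PKM-218 made up 45.4% of PKM in EVs and 9.07% in cells.

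**Figure D4:**
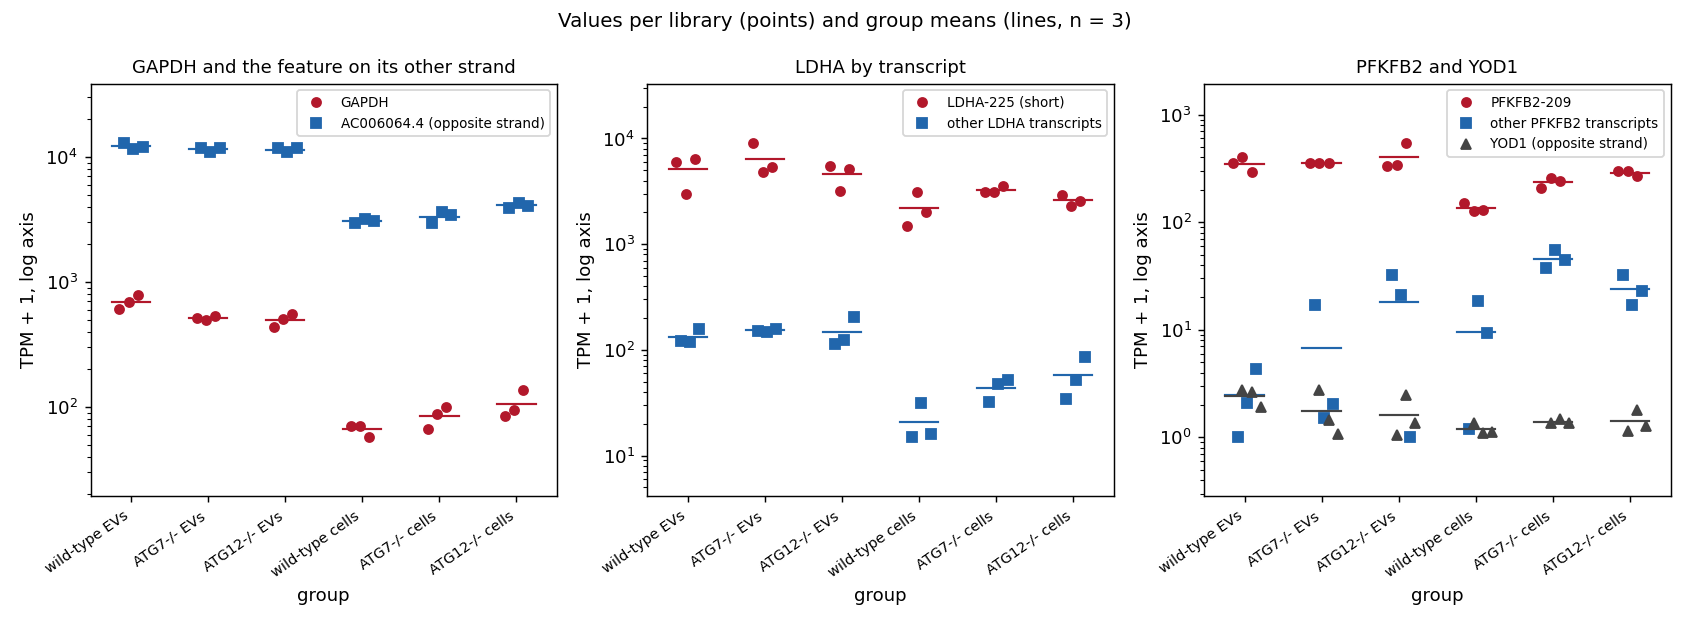
TPM + 1 on a log axis in each library (points, jittered sideways) with group means (lines, n = 3) for GAPDH and AC006064.4 (left), LDHA-225 and all other LDHA transcripts (middle), and PFKFB2-209, all other PFKFB2 transcripts and YOD1 (right). AC006064.4 lies above GAPDH in all 18 libraries, LDHA-225 lies above the other LDHA transcripts, and PFKFB2-209 lies far above YOD1.

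Of the 33 members, 18 had exons that overlap exons of a gene on the opposite strand. The partner reached a mean of at least 10 TPM in EVs or cells in 11 of 18 pairs and was above the member in both EVs and cells in 7. If reads had been assigned without strand, those from the overlapping stretch of a gene and its partner could not be told apart. With a reversed strand setting, reads of 1 gene of a pair would be listed under the other. The part of strand in the results was not tested. In those 11 pairs, the leading transcript had 0% opposite the partner for ALDOA, ALDOC, PGM1, PDK1, PDHB, SLC16A3 and TPI1. That share was 56.3% for MPC2, 39.7% for PFKM and 29.2% for PDHA1. TPI1 and its partner overlap by only 14 bases, less than a 50-base read. GAPDH had the most abundant partner, AC006064.4, and 38.9% of GAPDH-211 lies opposite it. AC006064.4 had 11737 ± 610 TPM in EVs and 3488 ± 505 in cells, where GAPDH had 568 ± 110 and 84.7 ± 23.9 (SD). AC006064.4 differed between EVs and cells by 1.47 ± 0.05 (limma adjusted p = 3.48e-11) where GAPDH differed by 2.47, and in no knockout comparison was it called.

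PFKFB2 partly lies opposite YOD1, a deubiquitinase gene. PFKFB2-209, a retained-intron transcript of 551 bases, held 94.6% of PFKFB2, and 57.2% of it lies opposite YOD1 exons. YOD1 itself had a mean of 0.942 TPM in EVs and 0.333 in cells, far below PFKFB2-209 at 369 ± 73.0 and 220 ± 69.7 TPM. All other PFKFB2 transcripts had 8.12 ± 11.5 TPM in EVs and 25.5 ± 17.3 in cells, which is the opposite order. The direction of the gene sum, higher in EVs, is thus that of PFKFB2-209.

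The other abundant partners were as follows. AC135507.1, opposite PDHB, had 129 TPM in EVs, ITGB3BP, opposite PGM1, had 113, AC093512.1, opposite ALDOA, had 64.9, CSNK1D, opposite SLC16A3, had 60.3, AC078883.1, opposite PDK1, had 57.7, and DCAF6, opposite MPC2, had 54.6. SPSB2 beside TPI1, AC005726.4 beside ALDOC and SENP1 beside PFKM had 18.4, 11.8 and 10.8 TPM in EVs, and MAP3K15 beside PDHA1 had 9.39 in EVs. Of these 10, only MAP3K15 differed between EVs and cells over the genotypes, by -0.98 ± 0.23 (limma adjusted p = 0.003).

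Near-identical copies and overlapping genes also limit some levels. Of the 50-base stretches in the leading transcript, 94.4% in LDHB-202, 91% in ALDOA-212, 43.1% in PGAM1-201, 20.4% in GAPDH-211 and 18.8% in TPI1-204 were found on the same strand in transcripts of other genes. For ALDOA-212 that gene was AC093512.2, which overlaps ALDOA at the same locus, and for TPI1-204 it was the pseudogene TPI1P1. Reads from shared stretches could have been split between the genes, so the levels of these 5 members are uncertain. For HK1-202, PFKFB2-209 and PDK3-202 no 50-base stretch was shared on the same strand.

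Related genes outside the 33 were tested in the same fits. Of 30 isozymes and other glycolysis genes listed, 17 were tested, and 3 were higher and 4 lower in EVs over the genotypes, with a median of -0.25, beside 7.66% higher and 36.5% lower of all genes. BSG, the chaperone of the lactate carriers, differed by 1.33 ± 0.19, the muscle enolase ENO3 by 1.03 ± 0.13 and the phosphatase PGAM5 by 0.80 ± 0.23. The transporter genes SLC16A7, SLC2A8 and SLC2A4 and the muscle mutase PGAM2 were lower, by -1.23, -1.15, -1.11 and -1.03. Of 14 tested among 15 partners of pyruvate dehydrogenase and other fates of pyruvate, malic enzyme ME1 was higher (0.76 ± 0.22), and the alanine aminotransferase GPT (-3.43 ± 0.42) and the complex component PDHX (-1.82 ± 0.34) were lower, with a median of 0.08. By limma 0 genes of either list were called between a knockout and wild type, in EVs or in cells. The smallest p there belonged to malic enzyme ME2 in ATG12-/- cells (log2 difference 1.05, limma adjusted p = 0.158) and to SLC2A4 in ATG7-/- cells (-1.16, limma adjusted p = 0.147).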

How the data were processed

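RNA from EVs and cells of 3 HEK293T genotypes was sequenced as 18 libraries in 6 groups of 3. The authors deposited TPM per transcript for 203027 transcripts. Per the submitters' processing notes, Salmon 0.14 and DESeq2 were used, with no role stated. Transcript identifiers were matched to GENCODE 29 (GRCh38), 202941 of them, and summed per gene. Scaling between libraries used the median of ratios. The test was limma 3.58.1 (R 4.3.3), run with a mean-variance trend on log2(TPM + 1) for genes that reached 1 TPM in 3 or more of the libraries fitted, in fits of the 9 EV, the 9 cell or all 18 libraries. P-values are two-sided and Benjamini-Hochberg adjusted over all genes, with a threshold of 0.05. The fits were tested on simulated data. Alternatives were other pseudocounts (0.5 and 5), filters, scaling, trend, sample weights, a replicate block, transcript subsets and leaving out each library.

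Members and lists were chosen with earlier results of these data known. Named were every called member, the 6 most abundant, opposite-strand genes with at least 10 TPM, and the called or, at most, the 2 smallest-p genes of the lists (isozymes, pyruvate partners, TCA cycle, hypoxia, HEK293 and other cell markers). Further uncalled members given with their values were picked after those values were seen. Sequences came from GENCODE 29 and RefSeq (GRCh38.p14). A result of the TCA cycle list is not reported here.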

Additional observations from a re-analysis of the deposited data

How the results depend on the processing

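Directions held in all refits of the 47 member calls, over 1353 refits, apart from PFKFB2 with protein-coding transcripts alone. There its difference between EVs and cells was -2.49 over the genotypes (limma adjusted p = 0.0113) and -2.02 in wild type (limma adjusted p = 0.241), and the limma adjusted p of the first ranged from 0.000476 to 0.0562 over its refits. Of those 47 calls, 27 were kept in every refit, and 111 refits lost a call. In the contrast over the genotypes, 15 of 20 members kept their call in every refit that tested them. HK2, counted as kept here and among the 27, had 28 refits, since the stricter filter left it out. The members that did not keep their call in every refit were SLC16A3, PFKM, PGK1, PDK1 and PFKFB2. SLC16A3 and PFKM lost it without scaling and with protein-coding transcripts alone, and SLC16A3 also with a pseudocount of 5 and without the filter. PFKM lost it without wild-type EV replicate 2 or 3, ATG7-/- EV 1, ATG12-/- EV 1 or 3, ATG7-/- cell 1 or 2, or ATG12-/- cell 1. SLC16A3 lost it without wild-type EV 1 or 2, ATG7-/- EV 2 or 3, ATG12-/- EV 1 or 2, wild-type cell 2 or 3, ATG7-/- cell 1, or any ATG12-/- cell library (limma adjusted p up to 0.471 for PFKM and 0.0872 for SLC16A3 over all refits). PGK1 and PDK1 lost it with protein-coding transcripts alone, PFKFB2 without the mean-variance trend. In the same contrast, leaving out single libraries gave 18 to 20 called members. It gave 10 to 15 in wild type, 3 to 9 in ATG7-/- and 2 to 6 in ATG12-/-, with the lowest counts in the knockouts coming without the replicate 1 cell library of that genotype.

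In ATG12-/- cells the 1 call became 0 with a pseudocount of 5, without the filter on low values, without scaling, without the trend, with the replicate block and with protein-coding transcripts alone. Leaving out single libraries there gave 0 to 1. In ATG7-/- cells the 0 calls became 1 without transcripts under 200 bases and without mitochondrial and small noncoding RNA. The cause of these changes was not tested. In the other comparisons between genotypes, interactions included, the count stayed at 0 in every refit.

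Libraries with the same replicate number did not vary together over all genes, which cannot show whether they were prepared together. The correlation of deviations from group means ran from -0.03 to 0.05 over 45 same-numbered pairs, with 0 over 0.1. With the replicate block, the called members numbered 20 over the genotypes, 12 in wild type, 8 in ATG7-/-, 6 in ATG12-/-, 0 in ATG12-/- cells and 0 in the other comparisons of genotypes.

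Scaling moved the median of all genes. In wild type, EVs minus cells, it was -0.76 with scaling and -0.48 without, and 16.3% of calls were higher with it and 32% without. Over the genotypes the medians were -0.62 and -0.47, and those of the members 0.83 and 1.06. In ATG7-/- the share of calls that were higher was 23.8% with scaling and 34.4% without, and for the ATG12-/- interaction 70.1% and 47.7%.

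Counts over all genes also moved. In ATG7-/- EVs the 24 called genes became 8 without the filter, 4 without the trend and 9 with the block. In ATG12-/- EVs the 18 became 7 with a pseudocount of 5, 5 without the filter, 8 without the trend, 7 with sample weights, 3 with the block and 6 without small noncoding RNA. The 45 in ATG7-/- cells became 28 with a pseudocount of 5, 26 with the stricter filter and 13 with the block. The 30 in ATG12-/- cells became 78 with sample weights and 12 with the block. The 6072 in wild type, EVs minus cells, became 4037 with the stricter filter. The 68 of the ATG7-/- interaction became 32 with the stricter filter, 45 without scaling, 37 without the trend, 34 with sample weights and 45 with the block, and the 67 of the ATG12-/- interaction became 42 without the trend and 40 with sample weights. Leaving out single libraries gave 5 to 21, 5 to 18, 5 to 53 and 13 to 44 genes for these 4 comparisons of EVs and cells with wild type, 26 to 81 and 26 to 89 for the interactions, and 1541 to 3138 and 1311 to 3056 for EVs minus cells in ATG7-/- and ATG12-/-.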

Other observations

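The citric acid cycle, which takes up the acetyl-CoA made from pyruvate, had 20 of its 21 listed genes tested between EVs and cells over the genotypes. By limma 6 were higher in EVs and 1 was lower, beside 7.66% higher and 36.5% lower of all genes. The median log2 difference was 0.36, against -0.62 for all genes. SDHB and SDHC, subunits of succinate dehydrogenase, differed by 1.32 and 1.30, the isocitrate dehydrogenase IDH2 by 0.85, the malate dehydrogenases MDH1 and MDH2 by 0.84 and 0.64 and the citrate synthase CS by 0.53. Between a knockout and wild type, in EVs or in cells, 0 of these genes were called by limma. The smallest p belonged to MDH2 in ATG7-/- EVs (1.69, limma adjusted p = 0.339) and SDHB in ATG12-/- EVs (-1.88, limma adjusted p = 0.393).

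Of 20 genes of the hypoxia pathway, 19 were tested, and 3 were higher and 4 lower in EVs, with a median of -0.06. Over all genes, 7.66% were higher and 36.5% lower, with a median of -0.62. NDRG1, DDIT4 and the oxygen sensor EGLN3 differed by 2.21, 1.91 and 1.32. HIF1A, the transcription factor itself, was lower by -1.74, ERO1A by -1.28, the mitophagy receptor BNIP3L by -1.16 and the oxygen sensor EGLN1 by -0.97. By limma 0 were called between a knockout and wild type, and NDRG1 in ATG7-/- cells had the smallest p (-1.76, limma adjusted p = 0.117).

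Among the 10 markers of the HEK293 line, NEFM, NEFL, CDH2 and VIM were higher in EVs, by 2.14, 1.94, 1.52 and 1.12, and EYA1 was lower, by -1.41. Of the 12 markers of other cell types, 4 could be tested, and PTPRC was lower, by -0.93. Over all genes, 7.66% were higher in EVs and 36.5% were lower.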
